A study of Homo sapiens with 16 samples.

Results

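The genes described here are 43 protein-coding genes of epithelial cell junctions, keratins and epithelial identity, out of 58735 genes in the deposited tables. They were taken as a list of gene symbols, and all 43 reached an FPKM of 1 (fragments scaled to gene length and library depth, as deposited) in at least 2 of the 14 libraries used. RNA sequencing was done on human lung cancer lines labelled as epithelium and wild type. NCI-H1975, a lung adenocarcinoma line whose EGFR holds an activating and a drug-resistance mutation, was given the chloroform fraction of Flos Magnoliae (dried magnolia flower buds), or magnolin, a lignan from the same buds, or was sequenced as the control, with 4 libraries a group. Parental HCC827, a lung adenocarcinoma line with an activating EGFR deletion and no treatment named in its labels, gave 2 libraries. No dose or exposure time is given in the labels, so the treatments may differ in either. Whether replicates came from separate cultures is not in the labels, so each p-value sets a difference against a spread between libraries that may be purely technical.

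Epithelial cells hold together through adherens junctions built on cadherins, through tight junctions that seal the space between cells, and through desmosomes and hemidesmosomes that anchor keratin filaments. Transcription factors of the Grainyhead-like, OVOL and ETS families and the ESRP splicing regulators maintain this program, while ZEB and SNAI factors repress it at a DNA element called the E-box. Loss of these genes with gain of mesenchymal genes is known as epithelial-mesenchymal transition, and in lung cancer lines it is known to go along with reduced response to EGFR inhibitors.

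The NCI-H1975 libraries came in separately normalized tables, replicates 1 and 2 of each group in the first and replicates 3 and 4 in the second, with HCC827 in one of its own. Depth, rebuilt from FPKM and gene length, was 18.39 to 21.31 M reads (M, mega) in the first table, 15.96 to 17.04 M in the second and 15.86 and 16.38 M in HCC827. The libraries numbered 1 stood apart from all other NCI-H1975 libraries. Between replicates 1 and 2 of a group, read counts differed by a chi-square of 103 to 113.6 per gene, against 3.725 to 11.65 between replicates 3 and 4, and no pair agreed within sampling noise. Results that rest on replicate 1 are therefore given beside those without it. KRT8, KRT18 and KRT19, keratins of simple epithelia, were at 94.3 FPKM or more in every library. Other epithelial genes were not: 9 of the 43 members, GRHL2 and OVOL1 among them, stayed under 1 FPKM in replicates 3 and 4. CDH2, the mesenchymal N-cadherin, was at 0.0618 FPKM or less in all 14 libraries, while VIM, the intermediate filament of mesenchymal cells, was at 106 to 210 FPKM in NCI-H1975 and at 2.53 and 4.01 FPKM in HCC827.

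The promoters of members are shown here because many members moved together between libraries. RefSeq promoter windows (build GRCh38.p14, 250 bases before to 50 after a transcription start) were found for 24 members in 34 windows. The E-box CAGGTG, read on either strand (CACCTG on the other), was in the window of 16 of the 24 members (66.67%), against 24.07% of 27305 genes with such a window. By window, 18 of 34 held it (52.94%), against 20.59% of 35116, and 26.47% of member windows held it more than once, against 3.49% of all. Base composition was not matched between these sets. The element was chosen after values were seen, and a match describes letters, not a bound site. The Grainyhead element AACCGGTT, which reads alike on both strands, was in 0 of 34 member windows and in 0.13% of all windows. The 250 bases before the start follow for 4 members that hold the element there, 3 that were high in replicate 1 and 1 that was not, CLDN7 (chr17:7262479-7262728, minus strand), AP1M2 (chr19:10587313-10587562, minus strand), RAB25 (chr1:156060910-156061159, plus strand) and DSP (chr6:7541421-7541670, plus strand), written 5′ to 3′ along the gene with each E-box in capitals.
CLDN7: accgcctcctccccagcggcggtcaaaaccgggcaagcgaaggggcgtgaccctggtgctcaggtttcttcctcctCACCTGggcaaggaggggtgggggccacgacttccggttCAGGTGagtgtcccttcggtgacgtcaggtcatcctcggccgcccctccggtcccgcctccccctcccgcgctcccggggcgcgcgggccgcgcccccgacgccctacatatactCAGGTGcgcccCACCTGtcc
AP1M2: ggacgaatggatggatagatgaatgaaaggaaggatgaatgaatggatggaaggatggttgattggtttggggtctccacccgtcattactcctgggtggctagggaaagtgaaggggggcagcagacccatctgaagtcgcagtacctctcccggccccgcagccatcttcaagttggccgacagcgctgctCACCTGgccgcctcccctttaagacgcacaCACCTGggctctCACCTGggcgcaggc
RAB25: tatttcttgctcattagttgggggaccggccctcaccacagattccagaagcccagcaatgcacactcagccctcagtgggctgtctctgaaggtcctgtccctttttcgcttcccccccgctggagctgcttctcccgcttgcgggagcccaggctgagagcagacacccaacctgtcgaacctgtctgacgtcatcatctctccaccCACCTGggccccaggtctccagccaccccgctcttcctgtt
DSP: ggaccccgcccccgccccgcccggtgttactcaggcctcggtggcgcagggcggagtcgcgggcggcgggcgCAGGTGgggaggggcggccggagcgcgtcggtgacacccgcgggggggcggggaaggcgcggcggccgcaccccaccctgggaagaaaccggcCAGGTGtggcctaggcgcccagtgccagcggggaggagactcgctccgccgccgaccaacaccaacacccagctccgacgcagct
CLDN7 held 4 E-boxes before this start and 1 more 6 bases past it, and the window of the other RefSeq start of CLDN7 held 0. AP1M2 held 3, all within 57 bases of the start, RAB25 held 1 here and 1 more 38 bases past it, and DSP held 2. The E-box count did not go with the size of the replicate difference in all members. In replicate 1 the mean FPKM was 15.8 times that of replicate 2 for CLDN7, 14.2 times for AP1M2 and 17.5 times for RAB25, but 0.924 times for DSP. The other members with 2 E-boxes in a window were at 7.30 times (OCLN), 2.79 times (JUP), 1.74 times (MUC1) and 1.47 times (DSG2), and the 8 members with none ran from 0.306 times (CLDN1) to 9.12 times (CLDN4). Among members with 1 E-box, SPINT1 was at 12.2 to 14.4 times within single groups and ELF3 at 0.662 to 1.24 times. CDH1, EPCAM, ST14 and ESRP1 had no window and are not in these counts.

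Across the NCI-H1975 libraries, most of the 43 genes were far higher in replicate 1 than in replicate 2, in cells of all 3 groups. EPCAM, CLDN7, SPINT1, ST14, CDH1 and ESRP1 had the largest log2 differences, while KRT8, DSP and ELF3 did not pass the test and CLDN1 went the other way. In limma on log2(FPKM + 1), with treatment in the model and 3 libraries a number, 39 of 42 tested members passed a Benjamini-Hochberg adjusted p of 0.05, 38 higher and 1 lower in replicate 1. Over all 13103 genes tested 39.7% passed, 20.5% higher and 19.3% lower. Of the 42, 10 reached 1 FPKM through replicate 1 libraries alone, so that their calls were built into the filter: DSC2, GRHL1, GRHL2, ITGB6, MARVELD3, OVOL1, OVOL2, PKP2, PRSS8 and RAB25. Among the other 32 members 28 were higher, 1 was lower and 3 were not called. OCLN, counted among these, had only 1 replicate 2 library at 1 FPKM, so it too met the filter only with replicate 1. With no filter 32 of 43 members were called, all higher, against 5.62% of 30625 genes. The median log2 difference was 1.68 over the tested members and 0.00 over all tested genes. What replicate number 1 shares is not in the labels, so the test compares these libraries and not a treatment. The list was made with earlier results of these data known, so these counts are a description.

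By raw means the members' replicate 1 level was a median of 6.57 times that in replicate 2, against 0.998 times over all tested genes. It was at least 2 times as high in 34 members and at least 10 times in 14, while 9.47% and 1.04% of all tested genes were that far up. In 37 members all 3 replicate 1 libraries lay above all 3 replicate 2 libraries, in 1 they lay below and in 5 they overlapped, against 24.7% above and 24.6% below among all tested genes. Summed over the members, FPKM was 2504, 2119 and 2167 in replicate 1 (fraction, magnolin and control), against 714, 707 and 863 in replicate 2. In replicates 3 and 4 the sum was 756 to 1015, close to replicate 2 and not to replicate 1, though that table was normalized separately. In bulk RNA, a smaller share of cells that express a gene and less RNA in each cell cannot be told apart. The same comparison of numbers 3 and 4 called 0 of 34 members and 0 of 14673 genes in limma (552 genes passed 0.05 before adjustment, and limma voom called 2), and the members' differences lay between -0.16 and 0.15 on the log2 scale.

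**Figure D1:**
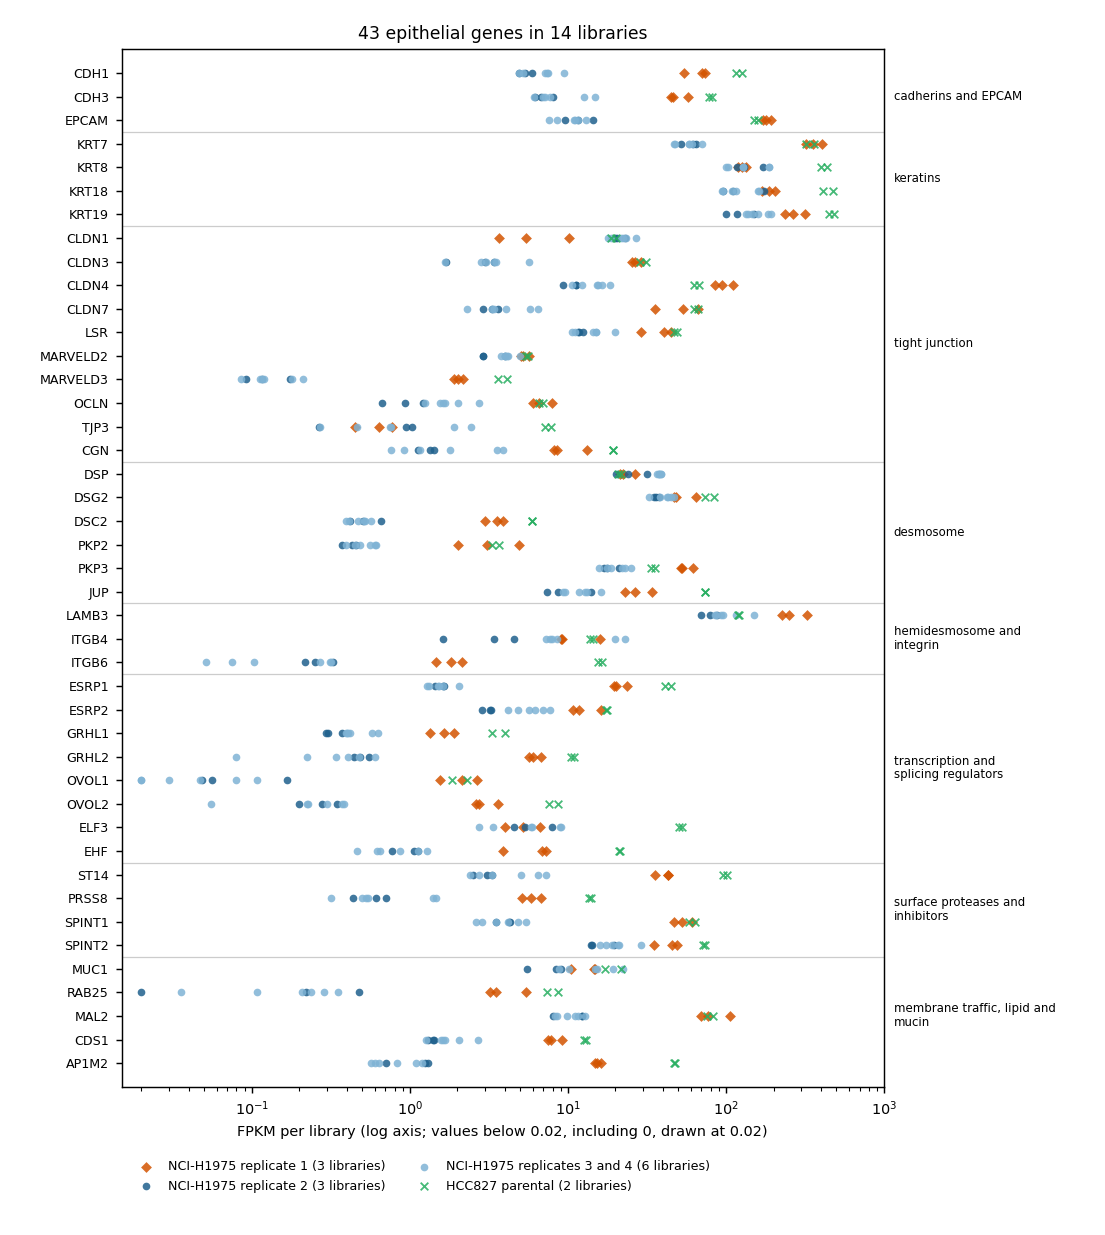
FPKM per library (log axis) of the 43 genes, grouped by role; diamonds are the 3 replicate 1 libraries of NCI-H1975, circles the replicate 2 and the replicate 3 and 4 libraries, and crosses parental HCC827. Replicate 1 lies to the right of the other NCI-H1975 libraries for most genes, but overlaps some of them for KRT8, KRT18, DSP, ELF3, TJP3, MUC1 and ITGB4, and lies to the left for CLDN1.

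CDH1 (ENSG00000039068, hg38 chromosome 16, 68737225 to 68835548, plus strand), the E-cadherin of adherens junctions, had 74.2 FPKM in fraction replicate 1, 54.2 in magnolin replicate 1 and 70.9 in control replicate 1. In replicate 2 it had 5.92, 4.88 and 5.31 FPKM in the same order. All 3 replicate 1 libraries lay above all replicate 2 libraries and above the 4.89 to 9.39 FPKM of replicates 3 and 4, and the log2 difference was 3.39 (SE 0.160, limma adjusted p = 1.864e-09). EPCAM (ENSG00000119888, chromosome 2, 47345158 to 47387601, plus strand), an epithelial adhesion molecule, had 178, 172 and 193 FPKM in replicate 1, against 11.6, 9.62 and 14.4 in replicate 2. Its log2 difference of 3.84 (SE 0.171, limma adjusted p = 1.474e-09) was the largest of the tested members. CDH3, the P-cadherin of basal epithelia, had 45.0 to 57.2 FPKM in replicate 1, against 6.22 to 8.04 in replicate 2 (log2 difference 2.66).

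Of 4 keratins 3 were higher in replicate 1, with ratios of means between 0.907 and 6.05. KRT7, a keratin of simple and glandular epithelia, averaged 361 FPKM in replicate 1 and 59.6 in replicate 2. KRT8 (ENSG00000170421, chromosome 12, 52897187 to 52949954, minus strand) had 134, 126 and 119 FPKM in replicate 1, against 118, 129 and 171 in replicate 2. The KRT8 libraries overlapped, and the log2 difference of -0.12 (SE 0.190, limma adjusted p = 0.6344) did not pass. KRT18 (ENSG00000111057, chromosome 12, 52948871 to 52952901, plus strand), the filament partner of KRT8, had 205, 170 and 188 FPKM in replicate 1, against 112, 96.3 and 174 in replicate 2. It was called at a log2 difference of 0.60 (SE 0.197, limma adjusted p = 0.02568) although control replicate 2 lay above magnolin replicate 1. It passed in 5 of 10 alternatives (adjusted p 0.00176 to 0.25). KRT8 and KRT18 overlap on opposite strands and have near-identical processed pseudogenes, and how reads were assigned is not given in the sources used here. KRT19 averaged 273 FPKM in replicate 1 and 123 in replicate 2.

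Of the tight junction genes 8 were higher, 1 was lower and 1, TJP3, fell under the filter. Of the higher genes, MARVELD3 met the filter through replicate 1 alone, and OCLN would not have met it without replicate 1. CLDN7, a claudin of the lateral membrane, had 66.7, 53.3 and 35.5 FPKM in replicate 1, against 2.92, 3.32 and 3.62 in replicate 2, a log2 difference of 3.58 (SE 0.194, limma adjusted p = 5.74e-09). CLDN4 averaged 96.7 FPKM in replicate 1 and 10.6 in replicate 2, and CLDN3 averaged 27.04 and 2.70 FPKM. MARVELD3, a tight junction membrane protein, averaged 2.03 FPKM in replicate 1 and 0.127 in replicate 2. CLDN1 (ENSG00000163347, chromosome 3, 190305701 to 190322475, minus strand), a sealing claudin, was the 1 member that went down, at 5.44, 3.68 and 10.2 FPKM in replicate 1, against 19.9, 22.9 and 20.4 in replicate 2. All its replicate 1 libraries lay below all replicate 2 libraries (log2 difference -1.66, SE 0.212, limma adjusted p = 2.666e-05), and also below the 17.9 to 27.1 FPKM of replicates 3 and 4. OCLN (occludin), CGN (cingulin, a cytoplasmic scaffold), LSR and MARVELD2 (proteins of junctions where 3 cells meet) had ratios of means between 1.62 and 7.63.

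Of 6 desmosome genes 5 were called higher in replicate 1, DSC2 and PKP2 among those that met the filter through replicate 1 alone. DSP, which ties keratins to the desmosome, had 22.3, 21.4 and 26.7 FPKM in replicate 1, against 24.2, 31.8 and 20.2 in replicate 2, and these overlapped. DSC2, a desmosomal cadherin, and PKP2, a plaque protein, averaged 3.47 and 3.34 FPKM in replicate 1, against 0.527 and 0.421 in replicate 2. PKP3 and JUP (plakoglobin) had ratios of 2.998 and 2.79, and DSG2, the widespread desmosomal cadherin, 1.47. Of the genes of cell attachment to the basement membrane, LAMB3, a chain of laminin-332, averaged 267 FPKM in replicate 1 and 79.3 in replicate 2. ITGB4, the hemidesmosome integrin, averaged 11.4 and 3.19 FPKM, and ITGB6, an epithelial integrin that activates TGF-beta, 1.81 and 0.266 FPKM.

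Among 8 regulators, GRHL1, GRHL2, OVOL1 and OVOL2 met the filter through replicate 1 alone, so their levels are a description; of the other 4, ESRP1, ESRP2 and EHF were called higher and ELF3 was not called. GRHL2 (ENSG00000083307, chromosome 8, 101492432 to 101669726, plus strand), a Grainyhead-like activator of CDH1 and claudin genes, had 6.77, 5.68 and 6.05 FPKM in replicate 1, against 0.444, 0.484 and 0.555 in replicate 2. The lowest replicate 1 value rested on 648 rebuilt reads and the replicate 2 values on 50 to 72. ESRP1 (ENSG00000104413, chromosome 8, 94641074 to 94707466, plus strand), which drives epithelial splicing, had 19.5, 20.1 and 23.7 FPKM in replicate 1, against 1.63, 1.63 and 1.45 in replicate 2 (log2 difference 3.10, SE 0.149, limma adjusted p = 2.228e-09). Neither gene had libraries that overlapped between the numbers. OVOL1, a repressor of mesenchymal factors, had the highest ratio of means of the 43 genes, 23.5, at 1.56 to 2.67 FPKM in replicate 1, against 0.0485 to 0.166 in replicate 2, where it rested on 4 to 12 reads. ESRP2, GRHL1, OVOL2 and EHF, an epithelial ETS factor, were higher by ratios of 4.15 to 10.9. ELF3, a further epithelial ETS factor, had 4.03, 6.64 and 5.22 FPKM in replicate 1, against 4.59, 5.35 and 7.88 in replicate 2, which overlapped.

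The surface protease and inhibitor genes ST14, SPINT1 and SPINT2 were called higher in replicate 1, as was PRSS8, which met the filter there alone. ST14 (matriptase) had 43.3, 43.2 and 35.8 FPKM in replicate 1, against 2.51, 3.30 and 3.08 in replicate 2 (log2 difference 3.40, SE 0.159, limma adjusted p = 1.791e-09). SPINT1, which inhibits matriptase, had 60.7, 52.9 and 46.7 FPKM in replicate 1, against 4.21, 4.33 and 3.49 in replicate 2 (log2 difference 3.44, SE 0.156, limma adjusted p = 1.59e-09). In neither gene did the numbers overlap. PRSS8 (prostasin), which works with matriptase, and SPINT2, a second inhibitor, had ratios of 10.1 and 2.71. Of the genes for membrane traffic, RAB25, a small GTPase of epithelial recycling, averaged 4.05 FPKM in replicate 1 and 0.232 in replicate 2, and AP1M2, an epithelial clathrin adaptor subunit, averaged 15.5 and 1.09 FPKM. MAL2, a transcytosis protein, had a ratio of 7.75, CDS1, an enzyme of phospholipid synthesis, 5.94, and MUC1, a surface mucin, 1.74.

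**Figure D2:**
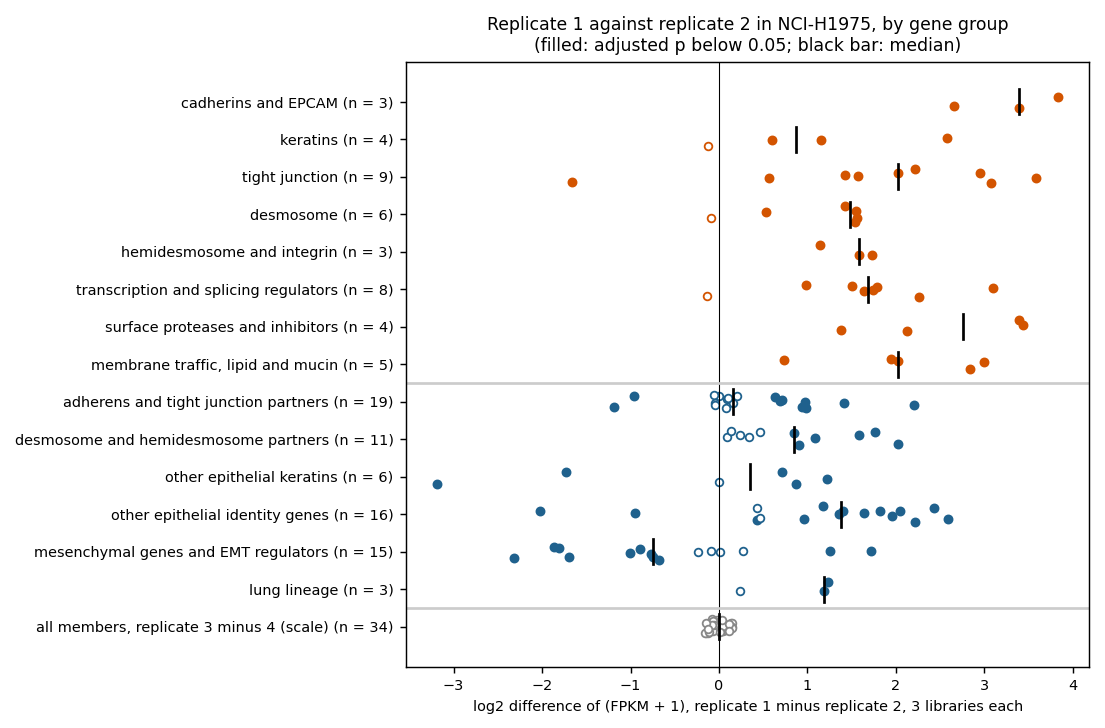
Log2 difference of (FPKM + 1), replicate 1 minus replicate 2, for the tested members by role (orange) and for other gene lists (blue); filled points passed adjusted p of 0.05 and black bars are medians. The grey row gives the members' replicate 3 minus replicate 4 differences, between -0.16 and 0.15, as a scale.

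Other genes of the epithelial program were read from lists that were not picked by how they moved, although they were written with earlier results of these data known. Of 16 tested further identity genes 12 were higher and 2 lower in replicate 1, with a median of 1.38. FOXA2, a factor of foregut epithelia, differed by 2.43 and C1orf116 by 2.21. LCN2, a secreted iron-binding protein, was lower by 2.02 and WFDC2 was lower by 0.95. Of 11 tested desmosome and hemidesmosome partners 6 were higher and 0 lower, among them the laminin chain LAMA3 (1.77) and the plaque protein PPL (1.58). Adherens and tight junction partners, many of them present in most cell types, gave 8 higher and 2 lower of 19 tested, with a median of 0.15; CRB3, a polarity protein, differed by 2.21 and CXADR by -1.19. Other keratins split: KRT80 differed by 1.22, while KRT17 and KRT16, keratins of basal and stressed epithelia, differed by -3.19 and -1.73. KRT17 had 0.535, 0.594 and 0.293 FPKM in replicate 1, against 15.5, 12.9 and 9.37 in replicate 2. It met the filter through replicate 2 alone, so its difference is a description. Which other genes of the further lists met the filter through 1 number alone was not counted.

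Mesenchymal genes mostly ran the other way. Of 15 tested genes of the mesenchymal list, 9 were lower and 2 higher in replicate 1, with a median of -0.74, and the summed list was at 388 to 437 FPKM in replicate 1, against 552 to 597 in replicate 2. ZEB1, the E-box repressor named above, had 1.13, 1.14 and 1.68 FPKM in replicate 1, against 3.54, 3.31 and 2.98 in replicate 2 (log2 difference -0.89, SE 0.161, limma adjusted p = 0.0005324). VIM had 111, 106 and 125 FPKM in replicate 1, against 201, 167 and 210 in replicate 2 (log2 difference -0.74, limma adjusted p = 0.003843). SPARC, a matrix protein, differed by -2.32, COL5A1 by -1.86 and CDH11 by -1.80. For each of ZEB1, VIM and SPARC, all replicate 1 libraries lay below all replicate 2 libraries. The 2 higher genes were the receptor kinase AXL (1.72) and SNAI1 (1.26), a further E-box repressor, at 21.0 to 22.4 FPKM in replicate 1, against 7.89 to 9.88 in replicate 2. TWIST1 was listed at 0 in all 14 libraries.

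**Figure D3:**
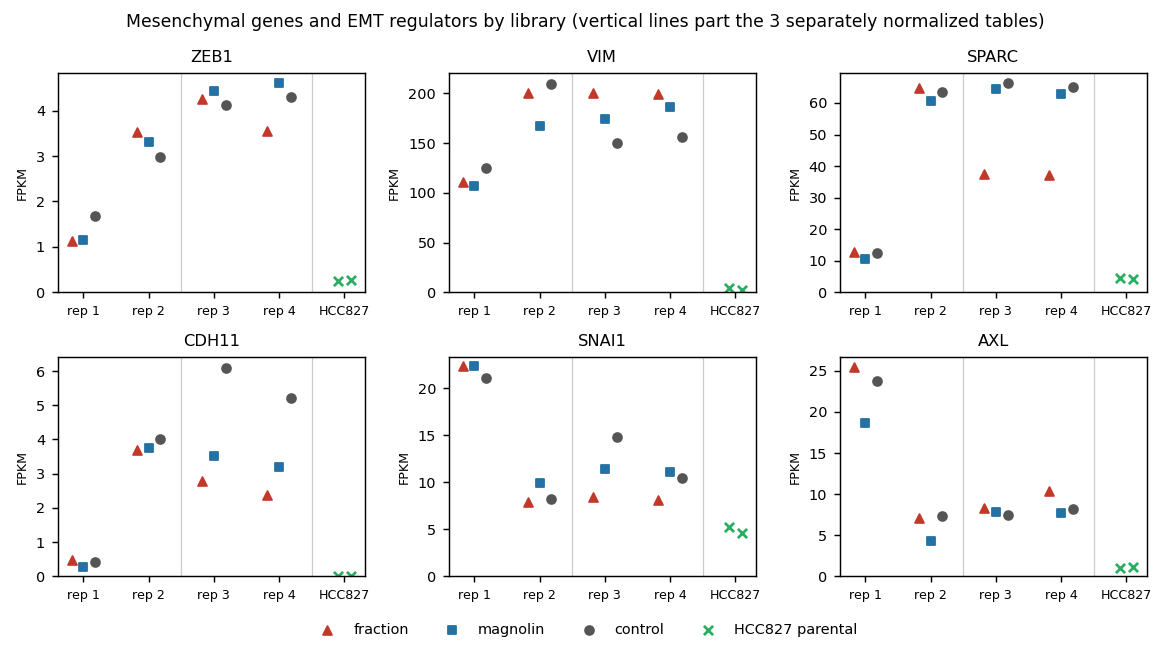
FPKM per library of 6 genes of the mesenchymal list by replicate number, with the treatments as markers and parental HCC827 at the right; vertical lines part the separately normalized tables. ZEB1, VIM, SPARC and CDH11 are lower in replicate 1 than in replicate 2, and SNAI1 and AXL are higher.

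Markers of other cell types moved with replicate 1 only in part. Of 8 blood cell markers 1 reached the filter, CD79A, at 3.25 to 3.73 FPKM in replicate 1, against 0.0358 to 0.435 in replicate 2. CD79A met the filter through replicate 1 alone, so its call was built into the filter. CD3E, FCGR3A and HBB were at 0 in every library and PTPRC was at 0.0126 FPKM or less. The summed blood list was 3.32 to 3.82 FPKM in replicate 1, against 0.110 to 0.494 in replicate 2. Of 11 fibroblast and endothelial markers 2 reached the filter, and COL1A2 passed, lower by 2.81, and the summed list was 2.72 to 3.99 FPKM in replicate 1, against 14.5 to 20.9 in replicate 2. NKX2-1, the lung lineage factor, had 3.51, 9.06 and 5.72 FPKM in replicate 1, against 1.87, 2.46 and 1.61 in replicate 2 (log2 difference 1.18, limma adjusted p = 8.937e-05), and was at 52.0 and 55.9 FPKM in HCC827. The part of these genes in the members' difference was not tested.

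Parental HCC827 carried most of the members at levels like or above replicate 1, in a table normalized separately, so levels are set side by side with no test. Both HCC827 libraries lay above all 3 replicate 1 libraries in 28 of the 43 members, below them in 4 (EPCAM, CLDN4, PKP3 and LAMB3) and overlapped with them in 11. Against replicates 2 to 4 they lay above in 38 members and overlapped in 5. The same positions were not counted over all genes, so these counts are a description and not a trait of the members. CDH1 averaged 121 ± 7.96 FPKM in HCC827 (SD, n = 2), against 66.4 ± 10.7 in replicate 1 (SD, n = 3), and GRHL2 averaged 10.7 ± 0.236 and 6.17 ± 0.554 FPKM. KRT8 averaged 416 ± 26.9 FPKM in HCC827 and 126 ± 7.70 in replicate 1, and ELF3 had 52.8 and 50.7 FPKM in HCC827, against 2.74 to 9.02 over all 12 NCI-H1975 libraries. EPCAM averaged 155 ± 5.003 FPKM in HCC827 and 181 ± 10.8 in replicate 1. Genes outside the members separated replicate 1 from HCC827 too (chosen after their values were seen): LCN2 was at 948 and 1017 FPKM in HCC827, against 0.864 to 1.60 in replicate 1, and NAPSA, an alveolar protease, was at 53.3 and 54.2 FPKM, against 0.114 to 0.131.

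With the chloroform fraction, in replicates 3 and 4, the members split in direction. Transcripts for ELF3, KRT8, KRT18, P-cadherin, cingulin, TJP3 and MUC1 were lower than in control cells, and those for ITGB4, LAMB3, CLDN7 and PRSS8 were higher. The question was how fraction-treated cells differ from control cells of the same line. In limma 11 of 34 tested members passed, 4 higher and 7 lower, when 19.9% of 14673 genes passed (8.33% higher, 11.6% lower), and the median log2 change was -0.02 over members and -0.01 over all genes. With the replicate number as a block 7 members passed, 1 higher and 6 lower, against 14.7% of genes (6.02% higher, 8.68% lower). The other 9 members, DSC2, GRHL1, GRHL2, ITGB6, MARVELD3, OVOL1, OVOL2, PKP2 and RAB25, stayed under 1 FPKM and were not tested. All values here are on the log2(FPKM + 1) scale, which understates changes of low genes.

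KRT8 had 99.6 and 103 FPKM with the fraction, against 187 and 186 in control, a log2 change of -0.87 (SE 0.060, limma adjusted p = 0.0008333). KRT18 had 94.3 and 95.98 FPKM with the fraction, against 163 and 159 in control, a change of -0.75 (SE 0.065, limma adjusted p = 0.00178). Both fell well outside the spread of either group. ELF3 had 3.37 and 2.74 FPKM with the fraction, against 9.02 and 8.98 in control (-1.31, SE 0.10, limma adjusted p = 0.001184), the largest fall among the members. CGN had 0.761 and 1.15 FPKM with the fraction, against 3.89 and 3.56 in control (-1.28, SE 0.216, limma adjusted p = 0.01226). CDH3 had 6.92 and 7.73 FPKM, against 14.9 and 12.6 in control (-0.82, SE 0.121, limma adjusted p = 0.007881). The groups overlapped in none of these 5 genes. Of all tested genes 29.18% lay wholly above control and 32.69% wholly below, so a lack of overlap was common here. CDH1 did not pass, with 7.42 and 7.17 FPKM against 7.53 and 9.39 in control (limma adjusted p = 0.3023), and neither did EPCAM (0.6689) or ESRP1 (0.46).

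MUC1 had 15.2 and 14.8 FPKM with the fraction, against 22.3 and 19.2 in control (-0.44, limma adjusted p = 0.03441), with no overlap. TJP3, a tight junction scaffold, had 0.466 and 0.761 FPKM with the fraction, against 2.44 and 1.89 in control (-0.97, limma adjusted p = 0.04099). TJP3 reached 1 FPKM in control libraries alone, and PRSS8 in fraction libraries alone, so that both met the filter only through their higher group. Neither passed with the block.

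ITGB4 (ENSG00000132470, chromosome 17, 75721328 to 75757818, plus strand) had 19.98 and 23.0 FPKM with the fraction, against 7.92 and 7.66 in control, a log2 change of 1.35 (SE 0.107, limma adjusted p = 0.001348). It was the largest rise and the 1 rise that held with the block (limma adjusted p = 0.005155). LAMB3 had 115.9 and 150 FPKM with the fraction, against 95.2 and 93.1 in control (0.48, limma adjusted p = 0.0416). CLDN7 had 5.76 and 6.46 FPKM with the fraction, against 4.07 and 3.39 in control (0.59, limma adjusted p = 0.04595), and PRSS8 had 1.47 and 1.41 FPKM, against 0.497 and 0.316 (0.80, limma adjusted p = 0.04742). The groups did not overlap in these 4 genes, where 29.18% of all tested genes lay wholly above control. With the block LAMB3, CLDN7 and PRSS8 no longer passed. Of 11 tested desmosome and hemidesmosome partners 4 were higher, among them PLEC (plectin, the linker between ITGB4 and keratin), ITGA6 and PERP, and 2 were lower, PPL and COL17A1. PLEC had 110 and 148 FPKM with the fraction, against 64.3 and 63.0 in control (0.995, limma adjusted p = 0.006688).

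By role, 2 of 4 keratins were lower and 0 higher, and the tight junction genes had 1 higher and 2 lower of 9 tested. Among 4 tested desmosome genes 0 passed, with changes between -0.32 and 0.01. In the surface protease group PRSS8 alone of 4 was called, with the limit on its filter given above, and of 4 tested regulators ELF3 was lower. In the further lists KRT16 (1.21) and KRT17 (0.996) were higher, KRT15 (-0.62) and KRT80 (-0.59) lower, and of 10 tested identity genes 3 were lower, among them TP63 (-1.24) and WFDC2 (-0.91), and KLF4 (1.09) was higher. Of 17 tested adherens and tight junction partners CRB3 was higher and 3 were lower, PARD6B by 0.85. The mesenchymal list gave 5 higher and 3 lower of 15: VIM had 201 and 199 FPKM with the fraction, against 150 and 156 in control (0.38, limma adjusted p = 0.01366), COL5A1 changed by 1.09 and SPARC by -0.80, while ZEB1 (-0.09, limma adjusted p = 0.5875) did not pass. NKX2-1 (-0.34, limma adjusted p = 0.1673) did not pass.

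**Figure D4:**
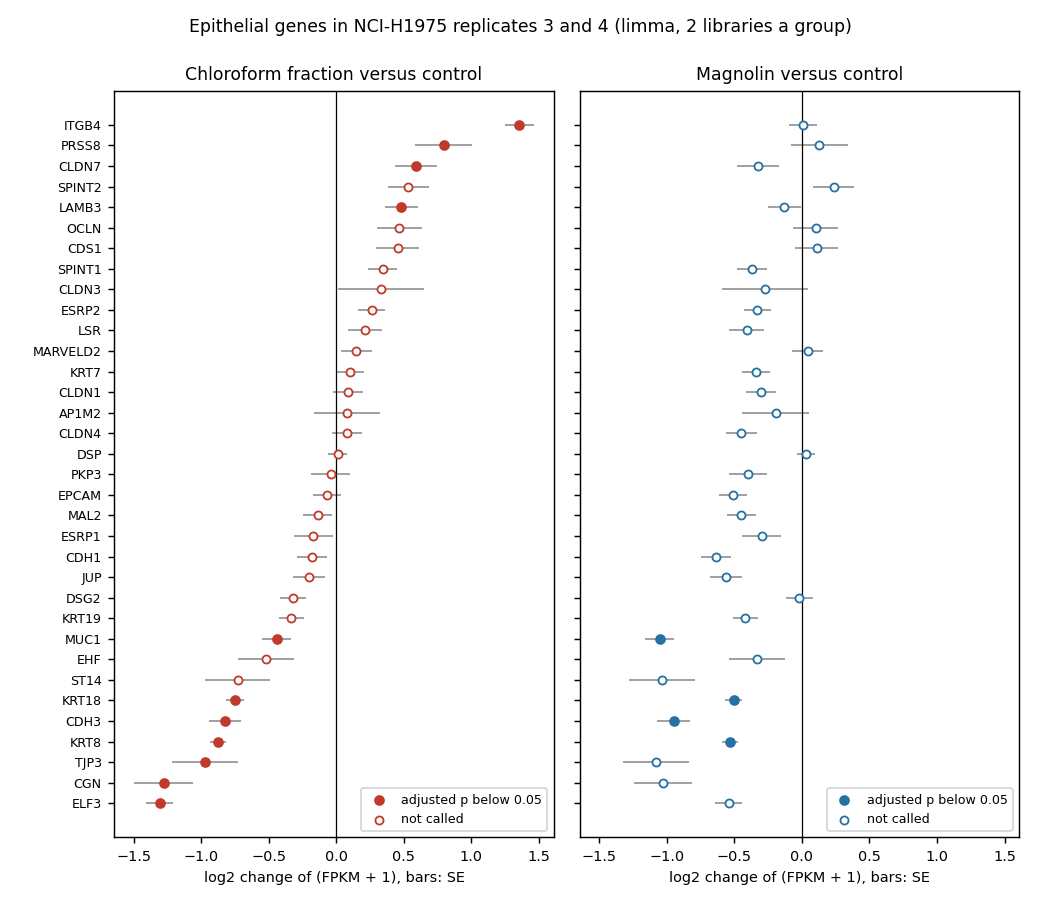
Log2 change of (FPKM + 1) with SE for the 34 tested members in replicates 3 and 4, for the fraction (left) and magnolin (right) against the same 2 control libraries; filled points passed adjusted p of 0.05. Fraction changes run from -1.31 (ELF3) to 1.35 (ITGB4), and most magnolin changes lie below 0.

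With magnolin, in replicates 3 and 4, the changes that passed were all falls: MUC1, CDH3, KRT8 and KRT18 were lower than in control cells and 0 members were higher. In limma this was 4 of 34 tested members, when 0.627% of 14673 genes passed (0.252% higher, 0.375% lower). With the replicate number as a block 1 member passed, MUC1, against 0.293% of genes (0.143% higher, 0.15% lower). The members' median log2 change was -0.36, against 0.01 over all genes. In 31 of the 43 members both magnolin libraries lay below both control libraries and in 3 they lay above, where 23.86% of tested genes lay below and 28.43% above. Falls of epithelial markers with magnolin were known when the list was made, so these counts are a description.

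MUC1 (ENSG00000185499, chromosome 1, 155185824 to 155192916, minus strand) had 10.1 and 8.81 FPKM with magnolin, against 22.3 and 19.2 in control, a log2 change of -1.05 (SE 0.105, limma adjusted p = 0.0239; 0.03767 with the block). CDH3 had 7.19 and 6.10 FPKM with magnolin, against 14.9 and 12.6 in control (-0.95, SE 0.121, limma adjusted p = 0.03926). KRT8 had 129 FPKM in both magnolin libraries, against 187 and 186 in control (-0.53, SE 0.060, limma adjusted p = 0.02763). KRT18 had 110 and 116.5 FPKM, against 163 and 159 in control (-0.50, SE 0.065, limma adjusted p = 0.04019). In all 4 genes the groups were apart, and the falls were larger than the spread within either group. None of these 4 passed when any single magnolin or control library was left out. CDH1 had 4.89 and 5.23 FPKM with magnolin, against 7.53 and 9.39 in control, which did not pass (-0.64, limma adjusted p = 0.08767). EPCAM had 8.51 and 7.65 FPKM, against 10.99 and 13.0 (-0.51, limma adjusted p = 0.1052), and ESRP1 did not pass either (limma adjusted p = 0.4392). In the further lists 2 identity genes passed, both lower, among them LCN2 (-1.36), and 0 genes of the junction partner, keratin, mesenchymal and lung lists did. VIM (0.23), ZEB1 (0.08) and NKX2-1 (-0.31) did not pass.

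Set against each other in replicates 3 and 4, 11 members were higher with the fraction than with magnolin and 2 were lower. In limma this was 13 of 34 tested members, when 14.9% of genes passed (5.55% higher, 9.36% lower). With the block 9 members passed, 7 higher and 2 lower, against 8.93% of genes (3.21% higher, 5.72% lower). The median log2 difference was 0.35 over members and -0.02 over all genes. ITGB4 had 19.98 and 23.0 FPKM with the fraction, against 8.49 and 7.24 with magnolin (1.35, SE 0.107, limma adjusted p = 0.0026). CLDN7 had 5.76 and 6.46 FPKM with the fraction, against 3.31 and 2.30 with magnolin (0.91, SE 0.155, limma adjusted p = 0.01833). Their libraries did not overlap, where 26.80% of all tested genes lay wholly above with the fraction and 32.81% wholly below. SPINT1 differed by 0.71, LSR by 0.62, LAMB3 and MUC1 by 0.61 each, and ESRP2, CLDN4, CDH1, EPCAM and KRT7 by 0.44 to 0.59. CDH1 had 7.42 and 7.17 FPKM with the fraction, against 4.89 and 5.23 with magnolin (limma adjusted p = 0.04759), and did not pass with the block. ELF3 had 3.37 and 2.74 FPKM with the fraction, against 5.95 and 5.81 with magnolin (-0.77, SE 0.10, limma adjusted p = 0.009737), and KRT8 was lower by 0.34. The fraction and magnolin were compared with each other at doses and times that the labels do not give.

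**Figure D5:**
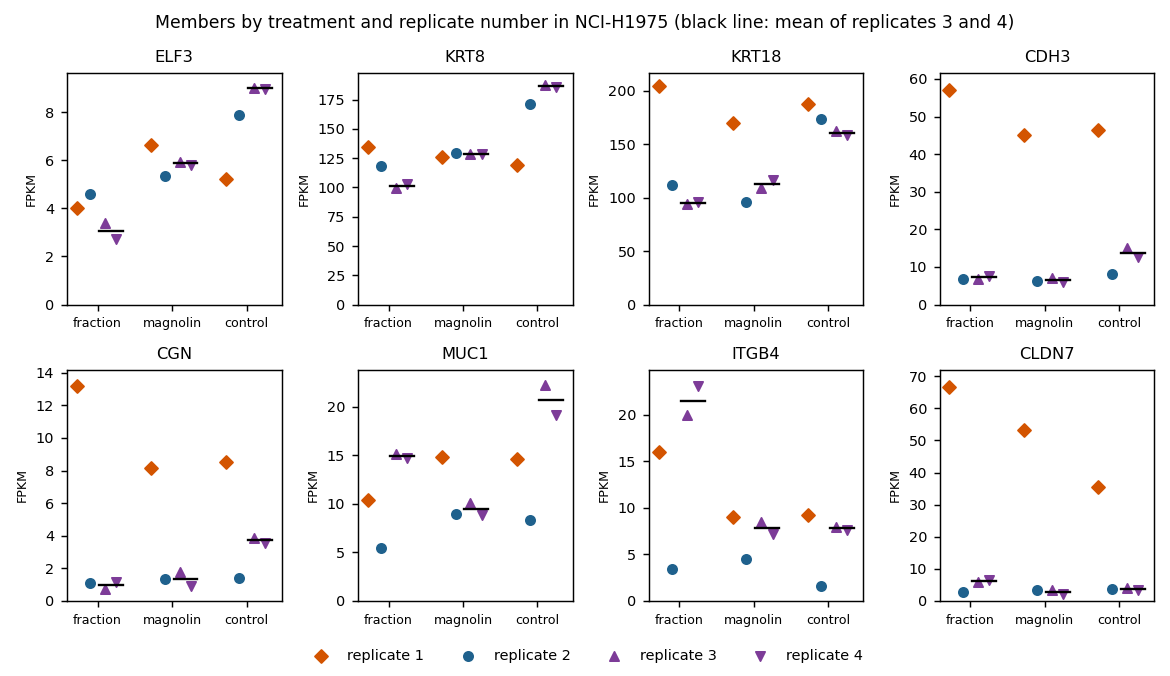
FPKM of 8 members by treatment and replicate number in NCI-H1975, with black lines for the means of replicates 3 and 4; the first table holds replicates 1 and 2. In replicates 3 and 4 ELF3, KRT8, KRT18, CDH3, CGN and MUC1 were lower with the fraction and ITGB4 and CLDN7 higher, and replicate 1 stands apart for CDH3, CGN and CLDN7.

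Replicates 1 and 2 gave no member call for any treatment comparison. The main fit left the replicate number out, so the gap between replicates 1 and 2 went into its spread. It could therefore hardly call members with that gap. For CDH1, fraction against magnolin, the SE was 1.72 in the main fit and 0.196 with the block. In limma 0 of 42 members and 0 of 13103 genes passed for the fraction or magnolin against control or against each other (107, 255 and 93 genes passed 0.05 before adjustment, and limma voom called 0). With the block 0 members passed for the fraction against control, against 0.183% of genes (0.0916% higher, 0.0916% lower). It was also 0 for magnolin against control, against 0.992% (0.481% higher, 0.511% lower), and 0 for the fraction against magnolin, against 0.183% (0.114% higher, 0.0687% lower). These libraries share none with replicates 3 and 4, so the direction of each pair can be set beside the calls. Of the 11 members called with the fraction, 10 had the same direction in the replicate 2 pair, with CLDN7 as the exception, and 7 in the replicate 1 pair, with KRT8, KRT18, CDH3 and CGN as exceptions. The 11 include TJP3 and PRSS8, which met the filter only through their higher group. The share of all called genes that kept direction was not computed, so these counts are a description. Of the 4 called with magnolin, 3 had the same direction in the replicate 2 pair, not MUC1, and 2 in the replicate 1 pair, not MUC1 and KRT8. Over all 43 members, 27 were lower with the fraction than in control in the replicate 2 pair and 17 in the replicate 1 pair, and 22 and 26 were lower with magnolin. KRT18 fell to 112 FPKM in fraction replicate 2, against 174 in control replicate 2, but had 205 in fraction replicate 1, against 188 in control replicate 1. ITGB4 had 16.0 and 3.40 FPKM in fraction replicates 1 and 2, against 9.24 and 1.62 in the controls of the same numbers.

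A joint fit of all 12 NCI-H1975 libraries, with the replicate number as a term, called 0 of 43 members for either treatment. For the fraction 0.156% of 15428 genes passed (0.117% higher, 0.0389% lower). Before adjustment 9 members passed 0.05, among them ELF3 (-0.90, SE 0.175, limma adjusted p = 0.07604) and ITGB4 (1.05, SE 0.246, limma adjusted p = 0.1136). Without replicate 1 the joint fit called 2 members for the fraction, against 0.69% of 14925 genes. By limma voom on rebuilt reads it called 3, against 2.06% of 15428 genes. For magnolin 0% of genes passed (1419 passed 0.05 before adjustment, and limma voom called 44), and before adjustment 8 members passed 0.05, led by MAL2 (-0.52, SE 0.099, limma adjusted p = 0.2336). The test of whether an effect differed between replicates 3 and 4 and replicates 1 and 2 called 0 members for either treatment, against 0.227% of genes for the fraction (0.0713% higher, 0.156% lower) and 0% for magnolin (1828 passed 0.05 before adjustment, and limma voom called 0). The widest such differences were -1.47 for CGN with the fraction (SE 0.339, limma adjusted p = 0.1405) and -1.21 for ST14 with magnolin (SE 0.335, limma adjusted p = 0.3829). MUC1, the magnolin fall that held with the block in replicates 3 and 4, differed by -1.11 (SE 0.154, limma adjusted p = 0.2705).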

How the data were processed

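The authors deposited FPKM per gene, in separately normalized tables. The submitters' processing notes name hg38. Per the labels' protocols, RNA quality was checked on a bioanalyzer and libraries were made with NEB reagents. Aligner and strand setting: not given in the sources used here. Of the columns beside parental HCC827, 2 have names found in no label; they stayed out, and the resistant cells were not analysed here.

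All 58735 genes matched GENCODE release 29 by identifier and coordinates. FPKM times gene length gave whole multiples of 1 read (within 0.05, for genes of up to 2000 reads), from which reads were rebuilt. Depth is 15.86 to 21.31 M reads, and precision for genes under 1 FPKM is limited by counting error.

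Genes reaching 1 FPKM in 2 or more libraries of a fit were tested as log2(FPKM + 1) with limma 3.58.1 in R 4.3.3 (empirical Bayes with a mean trend). The 3 NCI-H1975 groups shared 1 estimate of the spread, and p-values were adjusted by Benjamini-Hochberg over all tested genes, with a threshold of 0.05. The fits were tested on simulated data. Alternatives were a pseudocount of 0.1, no filter, median-ratio rescaling, limma voom on rebuilt reads, leaving out each library, a replicate block and each group pair alone; leaving out each replicate number in the joint fit was added after seeing the data.

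All groups use the same replicate numbers. Deviations from group means correlated at 0.290 to 0.840 between same-numbered libraries over all 4 numbers. This range also holds the difference between the separately normalized tables. Within replicates 1 and 2 the correlation was 0.742 to 0.781. Within replicates 3 and 4 it was -0.028 to 0.030, which gave no sign of pairing there. The joint fits took the number as a term. The main treatment fits within each table left it out, and the replicate block was an alternative. No label says what a number stands for, and the pairing rests on these correlations.

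The members and lists were chosen with earlier results of these data known. Named with full statistics were CDH1, EPCAM, KRT8, KRT18, GRHL2, ESRP1 and up to 6 called members a direction in each comparison, with up to 3 genes from each further list and ZEB1, VIM, CDH2 and NKX2-1. Genes named beyond this rule were named after their values were seen. Some genes of the further lists are counted but not reported here by name.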

Additional observations from a re-analysis of the deposited data

Results flagged for a closer look

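Within each NCI-H1975 group of 4 libraries, the gap of the farthest library to its nearest neighbour was set against the whole range of log2(FPKM + 1); a share above Dixon's 95% critical value for 4 samples marks a library far from the others. Chance marks about 1 in 20 such groups. Over the 43 members and 3 groups, 66 of 129 such sets were marked, 65 with replicate 1 farthest and 1 with replicate 2. The same count over all genes was not made. The members moved together and were listed with earlier results known, so 1 in 20 is no fair measure for this count. With the fraction the share was 0.918 for CDH1, 0.983 for EPCAM, 0.978 for ESRP1 and 0.945 for GRHL2. With magnolin it was 0.974 for CDH1, 0.931 for EPCAM, 0.936 for ESRP1 and 0.975 for the median over all members. KRT8 was also marked with magnolin, at 0.86, but its 4 libraries lay between 126 and 129 FPKM. In control it was 0.911 for EPCAM, 0.905 for ESRP1 and 0.921 for GRHL2. In each of these, replicate 1 was the library apart. The groups hold libraries of separately normalized tables, and the part of that normalization in these gaps was not tested; replicates 2, 3 and 4 come from both tables.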

How the results depend on the processing

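The replicate 1 against 2 counts held in every alternative, from 32 members with no filter to 39, and 36 to 38 with 1 library left out. For the fraction against control in replicates 3 and 4, 11 called members became 5 with no filter, 18 by limma voom, 7 with the replicate block and 4 to 11 with 1 library left out (4 and 5 without control replicates 3 and 4); ELF3, KRT8, KRT18 and ITGB4 passed in all 12 alternatives. For magnolin, 4 became 0 with no filter, 15 by limma voom, 1 with the replicate block and 0 to 5 with 1 library left out. For the fraction against magnolin, 13 became 2 with no filter, 20 by limma voom, 6 with the 2 groups alone and 1 to 15 with 1 library left out (2 and 1 without magnolin replicates 3 and 4, 6 without either control). The joint fit for the fraction called 0 members, 3 by limma voom, 2 without replicate 1 and 0 to 2 with 1 library left out; its difference between tables called 0, and 2 by limma voom. The replicate block changed no count in replicates 1 and 2. In all, 25 member counts moved by over 1.5 times and 143 did not. These member counts are given here without the share of all genes called in the same alternative. The call rate over all genes also changes between alternatives, so a moved count is a description and not a trait of the members. Of single members, 147 values no longer passed, and 6 turned sign, all uncalled differences of replicate 1 against 2: with 1 library left out DSP ran from -0.33 to 0.138 (positive without magnolin replicate 1 or 2), ELF3 from -0.334 to 0.056 and KRT8 from -0.278 to 0.076 (both positive without control replicate 1 or 2). The cause was not tested. Leave-1-out fits assume that a lone library varies like the other groups. The comparison of resistant with parental HCC827 was not run. In replicates 3 and 4 the members under 1 FPKM were left out by the filter; OVOL1 and RAB25 had 0 to 10 reads in these libraries, and DSC2 had at least 82.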
